A study of Rattus norvegicus with 48 samples.

Results

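Pparg (ENSRNOG00000008839) and Cebpa (ENSRNOG00000010918) are 2 of the 23481 genes in a table of estimated RNA counts from rat fat, and were picked by these identifiers. The animals were adolescent males, sedentary or exercised, sampled on postnatal day 61, which was 24 h after the last session. Fat came from under the skin (SAT, subcutaneous) or from inside the trunk (VAT, visceral). The 4 arms were early active phase control (EAC) and exercise (EAE), at zeitgeber time 13, and late active phase control (LAC) and exercise (LAE), at zeitgeber time 23, where zeitgeber time counts the hours after lights on. With 6 libraries for each arm and depot there were 8 groups and 48 libraries. The labels give no strain, exact fat pad or form of exercise, and early and late rats were different animals, so the hour of sampling and any other difference between those animals cannot be told apart.

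PPARG is a nuclear receptor that pairs with RXR and binds fatty acid ligands, and it is required for adipocytes to form and to keep their identity. C/EBPA is a basic leucine zipper factor that is induced during the same differentiation. Each factor supports expression of the other, and together they drive genes of lipid uptake, lipid storage and insulin response. In mature fat cells both stay on, and whole fat tissue also holds blood vessel, immune and precursor cells with less of either.

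The upstream windows of the genes are shown because the RNA of both was compared across the same libraries. They come from RefSeq (build GRCr8; the counts were made on rn6), cover the 250 bases before each start site on the + strand, and are written 5′ to 3′. RefSeq lists 1 start site for Cebpa and 2 for Pparg, 57714 bases apart. The counts sum over start sites, so their separate use was not measured. Capitals mark matches on either strand to the 7 motifs searched.
Cebpa, chr1:96896334-96896583: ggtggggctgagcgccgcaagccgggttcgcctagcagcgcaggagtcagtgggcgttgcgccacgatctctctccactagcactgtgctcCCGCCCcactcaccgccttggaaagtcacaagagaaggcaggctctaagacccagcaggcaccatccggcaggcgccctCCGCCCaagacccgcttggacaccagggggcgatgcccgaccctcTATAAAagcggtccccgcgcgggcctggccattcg
Pparg, upstream start site, chr4:150096808-150097057: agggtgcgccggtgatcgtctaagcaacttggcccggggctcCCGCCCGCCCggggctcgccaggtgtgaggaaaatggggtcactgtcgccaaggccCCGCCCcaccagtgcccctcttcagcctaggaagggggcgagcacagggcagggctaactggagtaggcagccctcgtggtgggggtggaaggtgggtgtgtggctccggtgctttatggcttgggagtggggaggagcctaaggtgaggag
Pparg, downstream start site, chr4:150154522-150154771: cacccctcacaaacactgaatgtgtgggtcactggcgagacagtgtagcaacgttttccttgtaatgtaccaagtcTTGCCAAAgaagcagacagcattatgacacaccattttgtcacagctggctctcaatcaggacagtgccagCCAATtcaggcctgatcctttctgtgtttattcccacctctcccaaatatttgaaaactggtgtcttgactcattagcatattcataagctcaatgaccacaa
The Cebpa window and the upstream Pparg window were GC-rich, at 67.2% GC each, where the median of 33469 windows of this length was 51.2%. The downstream Pparg window held 44.8% GC. The GC box GGGCGG occurred 2 times in the Cebpa window and 3 times, with 2 of them overlapping, in the upstream Pparg window, and 30.5% of all windows held it. A TATA-like run, TATAAA, lay 35 bases before the Cebpa start site, and 12.9% of windows had one. The downstream Pparg window alone of the 3 held the C/EBP motif TTGCNNAA (9.22% of all windows). It alone also held a CCAAT box, in forward orientation as CCAAT. Of all windows, 34% held CCAAT or its reverse complement ATTGG. The E-box CACGTG (5.59% of all windows), the D-box TTATGNAA (3.28%) and the nuclear receptor core motif AGGTCA (14.1%) had no match in these 3 windows.

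Library totals ran from 13163675 to 17890033 counts with a median of 15576425. Members had between 365 and 7877 counts in a library, for a counting error of 5.23% to 1.13%, which covers counting only. Levels are given as CPM, in which counts are scaled to a common library size with TMM factors from all 48 libraries. CPM is not corrected for gene length, so levels are compared between groups and not between the genes. In all, 4 libraries stood apart from their depot by rank correlation over the genes kept by the depot's expression filter, members included. They were SAT LAE replicates 4 and 6 (median Spearman correlation 0.828 and 0.846, against 0.956 to 0.980 in the other 22) and VAT EAC replicate 5 and VAT EAE replicate 3 (0.958 and 0.950, against 0.976 to 0.984). Members were at the bottom of their groups in each of these libraries, so results that rest on them are given both ways. In whole tissue, fewer cells of a type and less RNA per cell cannot be told apart. No other gene of the table was paired with a symbol, so the markers of adipocytes and of other cell types, and the other genes of the pathway, were not analysed here.

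By group mean, Pparg was at similar levels in the early groups of each depot and lowest in sedentary SAT late in the active phase. The mean of SAT LAE was close to that of SAT LAC (157 and 147 CPM), and the 2 lowest libraries were in SAT LAE. In SAT, EAC libraries stood at 157, 171, 237, 238, 257 and 273 CPM, and EAE libraries at 172, 199, 223, 223, 237 and 275 CPM. LAC libraries stood at 109.8, 122, 136, 139, 163 and 209 CPM, and 4 of the 6 lay below the lowest EAC library. LAE libraries split into 4 at 189.7, 221, 237 and 240.4 CPM and the 2 atypical ones at 19.7 (replicate 4) and 36.6 CPM (replicate 6). The lowest of the other SAT libraries was at 109.8 CPM.

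In VAT, Pparg stood at 204, 273, 298, 303, 315 and 328 CPM in EAC and at 194, 261, 264, 285, 338 and 349.5 CPM in EAE. The lowest library of each of these groups was the atypical one. LAC libraries held 158, 194, 228, 258, 261 and 269 CPM, and LAE libraries 213, 240.1, 275, 281, 287 and 291 CPM. All 6 LAC libraries lay below the EAC median, but the groups overlapped through EAC replicate 5.

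Cebpa showed no such low group in late sedentary rats. In SAT it stood at 169, 234, 287, 303, 304 and 365 CPM in EAC, and at 148, 234, 305, 345, 413 and 449 CPM in EAE. LAC libraries held 179, 255, 261, 267, 296 and 308 CPM, inside the EAC range. LAE libraries held 61.8 and 70.5 CPM in the atypical replicates 4 and 6, and 228, 255, 320.1 and 334 CPM in the rest.

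In VAT, Cebpa stood at 258, 346, 391, 392, 422 and 474 CPM in EAC and at 248, 395, 418, 475, 482 and 496 CPM in EAE. LAC libraries held 349, 375, 386, 438, 458 and 475 CPM, and LAE libraries 357, 370.0, 470.2, 474, 481 and 546 CPM. The 4 VAT groups overlapped throughout, and the lowest early library was again the atypical one in both arms.

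**Figure D1:**
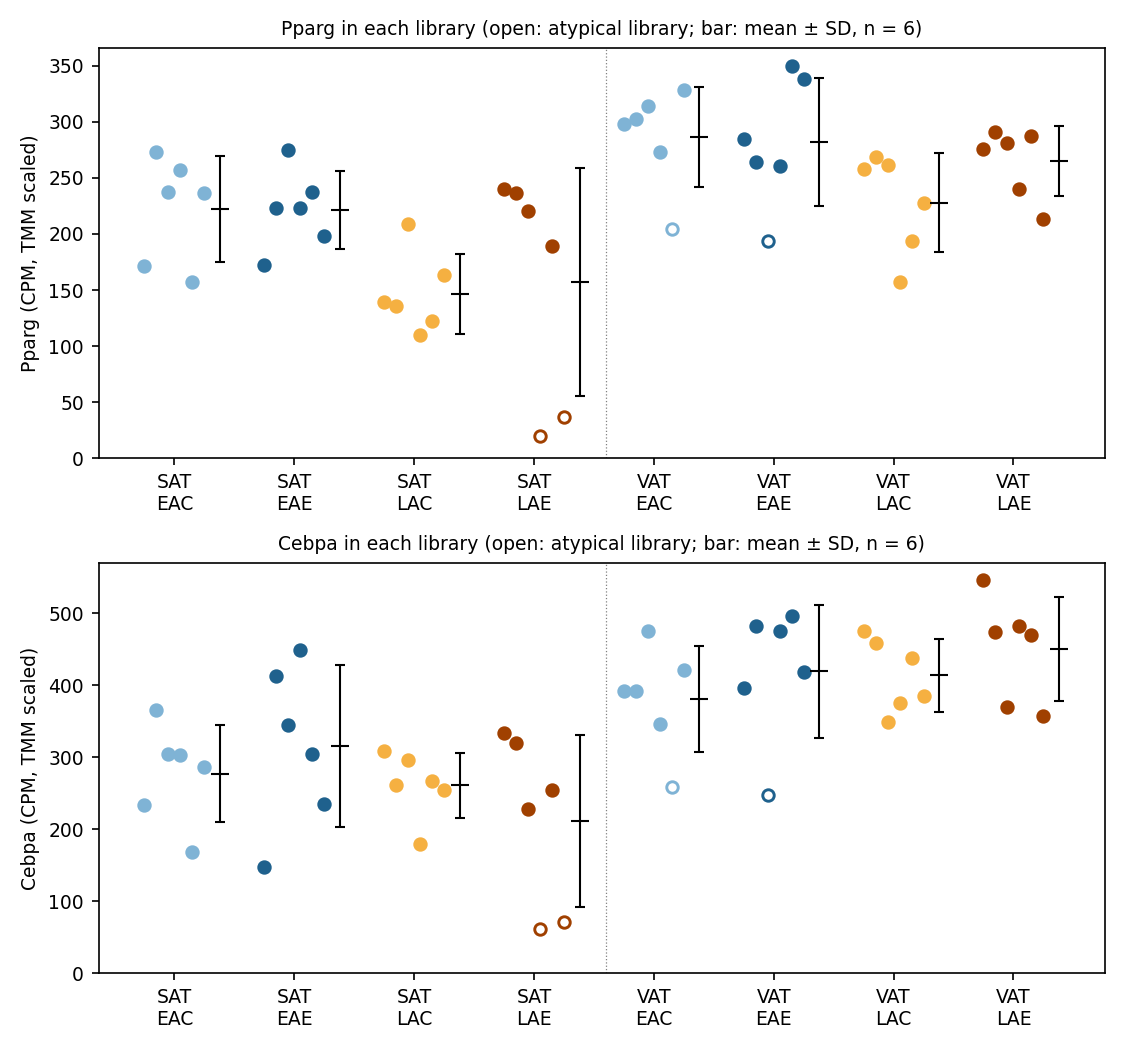
Pparg (top) and Cebpa (bottom) in CPM on the vertical axis for each of the 48 libraries by group, with atypical libraries as open circles and the mean ± SD of 6 libraries as bars. VAT group means lie above SAT group means, SAT LAC is low for Pparg at 109.8 to 209 CPM, and the 2 open circles of SAT LAE lie lowest for both genes.

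Ordered by mean, Pparg ran from VAT EAC (287 ± 44.4 CPM, SD, n = 6) through VAT EAE (282 ± 57.1), VAT LAE (265 ± 31.1), VAT LAC (228 ± 44.2), SAT EAC (222 ± 47.1), SAT EAE (221 ± 34.8) and SAT LAE (157 ± 102) to SAT LAC (147 ± 35.5). Every neighbouring pair in that order lay closer than the larger SD of the pair, with the widest gap at 0.83 SD between VAT LAE and VAT LAC. Without the atypical libraries SAT LAE joined the early SAT groups at 222 ± 23.1 CPM (n = 4), and the gap from SAT EAE down to SAT LAC was 2.11 SD. Cebpa ran from VAT LAE (449.8 ± 72.4 CPM) through VAT EAE (419 ± 92.6), VAT LAC (413 ± 50.7), VAT EAC (381 ± 73.5), SAT EAE (316 ± 112), SAT EAC (277 ± 67.7) and SAT LAC (261 ± 45.2) to SAT LAE (211 ± 119). Its neighbours also lay within the larger SD, by 0.06 to 0.58 SD, and the drop from the lowest VAT to the highest SAT group was the widest.

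The depot comparison asked whether visceral and subcutaneous fat carry different amounts of these transcripts, and both genes had higher means in VAT. In sedentary rats Cebpa averaged 397 ± 62.6 CPM in 12 VAT libraries and 269 ± 55.5 CPM in 12 SAT libraries, and 9 VAT libraries lay above the highest SAT library. Its level rose 1.48-fold from SAT to VAT (log2 0.56 ± 0.19 SE, adjusted p = 0.0153, edgeR). In exercised rats it averaged 434 ± 80.8 CPM in VAT and 264 ± 123 CPM in SAT (log2 0.75 ± 0.19, adjusted p = 0.00123, edgeR). Without the atypical libraries Cebpa was higher in VAT by 0.61 ± 0.13 in sedentary rats (adjusted p = 1.03e-04, edgeR) and by 0.59 ± 0.13 in exercised rats (adjusted p = 3.66e-04, edgeR), on the log2 scale.

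Pparg averaged 257 ± 52.2 CPM in VAT and 184 ± 56 CPM in SAT of sedentary rats, with 11 of 12 VAT libraries above the SAT median. That log2 difference of 0.50 ± 0.21 did not pass the threshold with all libraries (adjusted p = 0.0544, edgeR), and was 0.54 ± 0.10 without the atypical ones (adjusted p = 1.88e-05, edgeR). In exercised rats Pparg averaged 273 ± 44.7 CPM in VAT and 189 ± 79.9 CPM in SAT, and was higher in VAT by 0.55 ± 0.21 (adjusted p = 0.0307, edgeR). Without the atypical libraries this was 0.34 ± 0.11 (adjusted p = 0.00702, edgeR), with a SAT mean of 222 CPM.

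Depot differences were common in this tissue pair: 43.3% of 14693 tested genes were called in sedentary rats and 50.3% in exercised rats, or 53.4% and 52.2% without the atypical libraries. A depot call of a member is read against that background, and by itself sets neither gene apart. The median over all genes was -0.02 (log2) in sedentary and -0.04 in exercised rats, and 89.4% and 91.1% of genes had a lower value than Pparg and Cebpa in sedentary rats. Scaling by library totals in place of TMM moved those medians to -0.17 and -0.21. It also lowered the members' differences, and the calls for Cebpa in sedentary rats (0.39, adjusted p = 0.0612, edgeR) and for Pparg in exercised rats (0.40, adjusted p = 0.0808, edgeR) were lost. Leaving out the SAT and VAT libraries of EAE number 1, 5 or 6 also ended the Pparg call in exercised rats, with adjusted p values of 0.0626, 0.0557 and 0.0691 (edgeR).

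The phase comparison in sedentary rats asked whether the 2 transcripts differ between late and early sampling without exercise. Pparg averaged 147 ± 35.5 CPM late and 222 ± 47.1 CPM early in SAT, with 6 of 6 late libraries below the early median. The log2 difference of -0.60 ± 0.40 (SE) did not pass with all 24 SAT libraries in the fit (adjusted p = 0.515, edgeR). The atypical libraries belong to neither of these groups, and enter only through the scaling, filter and spread that the fit shares among the 4 groups. Without them the value was -0.59 ± 0.15, and Pparg fell (adjusted p = 0.0185, edgeR), as it did in a fit of the 2 groups alone (-0.59 ± 0.17, adjusted p = 0.0352, edgeR) and with limma voom, which weights libraries by quality (-0.60 ± 0.18, adjusted p = 0.0182). Of 14372 genes, 3.22% were called in this comparison with all libraries, and 8.56% of 14505 without the atypical ones. The fit of the 2 groups alone called 12.1% of 13763 genes, and limma voom 19.8% of 14372. With all 24 libraries Pparg also missed the threshold with DESeq2 size factors, no filter and a block for the replicate number (adjusted p = 0.513, 0.582 and 0.517, edgeR). The DESeq2 Wald test (adjusted p = 0.460) and library totals in place of TMM (adjusted p = 0.548, edgeR) gave no call either.

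In VAT the same comparison gave Pparg 228 ± 44.2 CPM late and 287 ± 44.4 CPM early, a log2 difference of -0.34 ± 0.14 (adjusted p = 0.122, edgeR; 11.3% of 13883 genes called). Without EAC replicate 5, the low early library, the value was -0.41 and passed (adjusted p = 0.0472, edgeR; 11.4% of 13942 genes called). Leaving out any other single library of these groups gave no call, nor did a fit of the groups alone (-0.33, adjusted p = 0.146, edgeR). With DESeq2 size factors, no filter and a block for the replicate number Pparg also missed the threshold (adjusted p = 0.126, 0.168 and 0.134, edgeR). The DESeq2 Wald test gave no call either (adjusted p = 0.0965). Limma voom gave one (-0.37, adjusted p = 0.0220, with 2398 of 13883 genes called). Library totals did too (-0.33, adjusted p = 0.0465, edgeR, with 1217 genes called). Without both atypical VAT libraries Pparg fell by 0.41 ± 0.12 (adjusted p = 0.0202, edgeR; 14.9% of 13875 genes called). The 6 late libraries then lay below all 5 early ones, an order that 4.52% of genes showed. The depots did not differ detectably in this phase difference (VAT minus SAT 0.27 ± 0.43, adjusted p = 0.99, edgeR, and 0.20 ± 0.20, adjusted p = 0.845, without the atypical libraries).

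Cebpa gave small phase differences in sedentary rats. It averaged 261 ± 45.2 CPM late and 277 ± 67.7 CPM early in SAT (log2 -0.08 ± 0.34, adjusted p = 0.943, edgeR), and 413 ± 50.7 and 381 ± 73.5 CPM in VAT (0.11 ± 0.14, adjusted p = 0.693, edgeR). With the atypical ones left out they were -0.08 ± 0.22 and 0.03 ± 0.11 (adjusted p = 0.872 and 0.896, edgeR). With all libraries the 95% intervals (normal) ran from -0.75 to 0.58 in SAT and from -0.17 to 0.40 in VAT.

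In exercised rats the late against early values of SAT differed with and without the atypical pair. Pparg averaged 157 ± 102 CPM in LAE and 221 ± 34.8 CPM in EAE (log2 -0.50 ± 0.39, adjusted p = 0.383, edgeR; 17.3% of genes called). Without replicates 4 and 6 the LAE mean was 222 ± 23.1 CPM (n = 4) and the difference 0.01 ± 0.17 (adjusted p = 0.99, edgeR; 12.2% of genes called). Cebpa moved likewise, from -0.58 ± 0.34 (adjusted p = 0.234, edgeR) to -0.15 ± 0.24 (adjusted p = 0.746, edgeR). In VAT, Pparg differed by -0.10 ± 0.14 (adjusted p = 0.649, edgeR; 21% of genes called) and Cebpa by 0.09 ± 0.14 (adjusted p = 0.700, edgeR). Without the atypical VAT libraries these were -0.19 ± 0.12 and -0.03 ± 0.11 (adjusted p = 0.247 and 0.875, edgeR).

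Exercise early in the active phase gave differences no larger than about 1 SE for both genes with all libraries. In SAT the log2 differences were 0.00 ± 0.39 for Pparg and 0.19 ± 0.34 for Cebpa (adjusted p = 1.00 each, edgeR). In VAT they were -0.02 ± 0.14 and 0.14 ± 0.14 (adjusted p = 1.00 each, edgeR). No gene was called in either depot by edgeR (0%) or limma voom, and DESeq2 called 3 in SAT and 0 in VAT. A raw p under 0.05 (edgeR) was held by 131 of 14372 SAT genes and 345 of 13883 VAT genes. Both shares lie below the 0.05 that no difference in any gene would give. With the atypical VAT libraries left out the VAT differences were -0.01 ± 0.12 and 0.17 ± 0.11 (adjusted p = 0.998 each, edgeR). The 95% interval (normal) for Pparg, with all libraries, ran from -0.77 to 0.77 in SAT and from -0.29 to 0.25 in VAT.

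Late exercise in SAT also read differently with and without the atypical libraries. In SAT, Pparg averaged 157 ± 102 CPM in LAE and 147 ± 35.5 CPM in LAC (log2 0.10 ± 0.39, adjusted p = 0.891, edgeR; 11.5% of genes called). The 6 LAE libraries fell on both sides of the LAC range, with 3 above its highest and 2 below its lowest library. Without replicates 4 and 6 the remaining 4 lay above the LAC median, 3 of them above all LAC libraries, at 222 ± 23.1 CPM. The difference was then 0.60 ± 0.17 and still missed the threshold (adjusted p = 0.0610, edgeR; 2.14% of genes called). Cebpa went from -0.31 ± 0.34 (adjusted p = 0.557, edgeR) to 0.12 ± 0.24 (adjusted p = 0.817, edgeR), a change of sign.

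In VAT late exercise gave 0.22 ± 0.14 for Pparg (265 ± 31.1 against 228 ± 44.2 CPM, 4 of 6 LAE libraries above the highest LAC library) and 0.12 ± 0.14 for Cebpa. Neither passed (adjusted p = 0.575 and 0.813, edgeR), and edgeR called 0% of genes, while 1557 had a raw p under 0.05, DESeq2 called 33 and limma voom 200. Without LAC replicate 4 the Pparg value was 0.12 (adjusted p = 0.900, edgeR). The late exercise and the sedentary phase comparison share the LAC libraries, so their Pparg values are not independent of each other.

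An interaction term tested the exercise effect late against early. For Pparg in SAT it was 0.10 ± 0.56, or 0.60 ± 0.23 with the atypical pair left out (adjusted p = 0.945 and 0.369, edgeR), and in VAT 0.24 ± 0.19 and 0.22 ± 0.17 (adjusted p = 0.856 and 0.690, edgeR). For Cebpa it was -0.50 ± 0.48 in SAT and -0.02 ± 0.20 in VAT (adjusted p = 0.610 and 0.993, edgeR), and -0.07 ± 0.32 and -0.06 ± 0.15 without the atypical libraries (adjusted p = 0.958 and 0.934, edgeR). Over all genes edgeR called 0% for this term, while 2411 SAT genes and 975 VAT genes had a raw p under 0.05. DESeq2 called 183 and 2, and limma voom 1 and 0. In SAT edgeR called 0.0276% once the atypical pair was left out. The phase difference of Pparg in sedentary rats is thus not shown to differ from that in exercised rats. Depot by exercise tests gave no call either, at 0.11 ± 0.43 for Pparg and 0.42 ± 0.38 for Cebpa late (adjusted p = 0.918 and 0.602, edgeR). With the atypical ones left out these turned to -0.39 ± 0.21 and -0.01 ± 0.26 (adjusted p = 0.646 and 0.999, edgeR). Late minus early in exercised rats, VAT minus SAT, was 0.40 ± 0.43 for Pparg and 0.68 ± 0.38 for Cebpa (adjusted p = 0.595 and 0.268, edgeR; 7.43% of genes called), and -0.18 ± 0.21 and 0.14 ± 0.27 without them (adjusted p = 0.755 and 0.865, edgeR; 0.556% called).

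**Figure D2:**
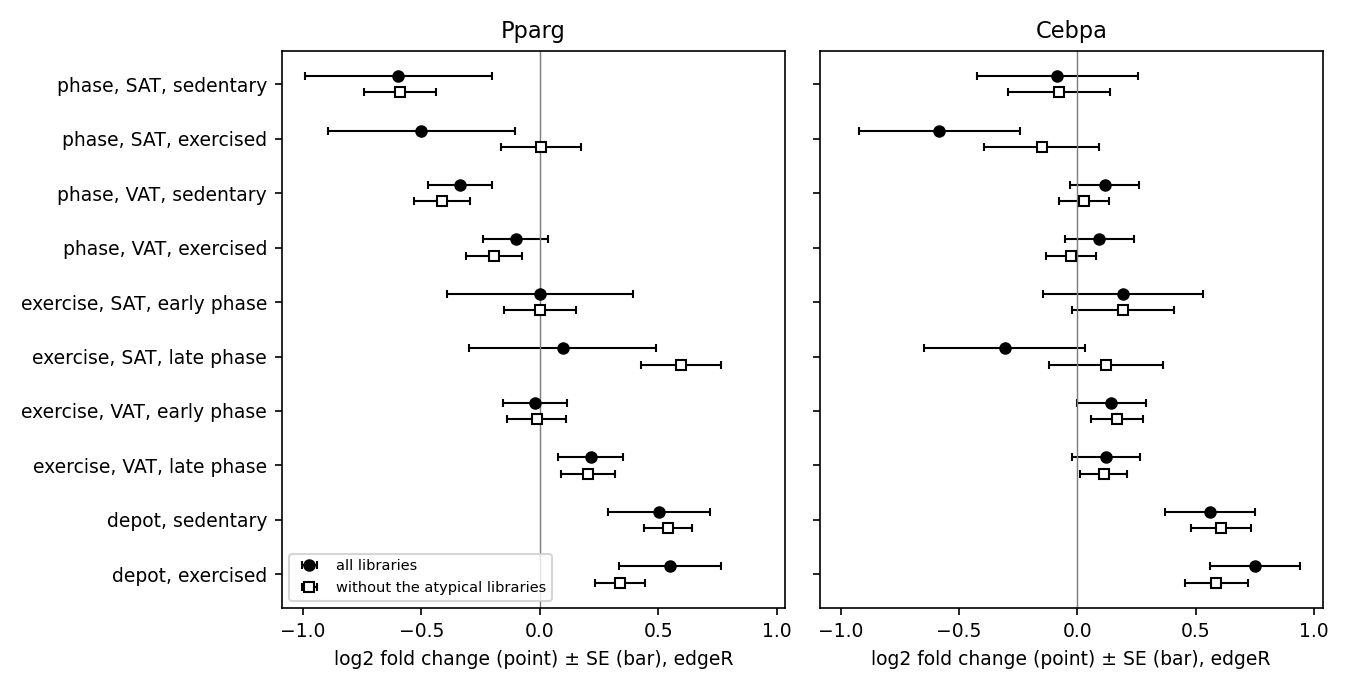
Log2 fold changes (points) with standard errors (bars) from edgeR for Pparg (left) and Cebpa (right) in 10 comparisons, where phase is late minus early, exercise is exercised minus sedentary and depot is VAT minus SAT. Filled circles use all libraries and open squares leave out the 4 atypical ones: the sedentary SAT phase value of Pparg stays near -0.6 with a shorter bar, and its late exercise value in SAT moves from 0.10 to 0.60.

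The ratio of Pparg to Cebpa counts inside a library does not depend on how libraries are scaled, and it separated the sedentary SAT groups. It is given as a description, with no test, and it is not a ratio of molecules since gene lengths differ. How often ratios of other gene pairs separate these groups was not examined, so no background stands beside the separations below. In SAT, EAC libraries had 0.732, 0.746, 0.781, 0.826, 0.849 and 0.930 Pparg counts per Cebpa count, and LAC libraries 0.452, 0.458, 0.521, 0.614, 0.642 and 0.707. These ranges did not overlap. In VAT the EAC ratios were 0.663, 0.759, 0.773, 0.779, 0.789 and 0.792, and the LAC ratios 0.420, 0.443, 0.543, 0.587, 0.591 and 0.748. There 5 of the 6 late libraries lay below the lowest early one.

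By SD, ratios were more spread in exercised than in sedentary rats in SAT and in early VAT, but not in late VAT. The sedentary SDs were 0.0738 in SAT EAC, 0.105 in SAT LAC, 0.0486 in VAT EAC and 0.119 in VAT LAC. Without the atypical replicates the SD of SAT LAE was 0.118 (n = 4). SAT EAE libraries ran from 0.497 to 1.16 (mean 0.770 ± 0.240), and SAT LAE libraries from 0.318 to 0.970 (0.669 ± 0.223). The lowest LAE ratios, 0.318 and 0.519, were those of the atypical replicates 4 and 6, and the other 4 ran from 0.720 to 0.970, above all 6 SAT LAC libraries. In VAT, EAE averaged 0.685 ± 0.113 and LAE 0.598 ± 0.0950, and their ranges overlapped. In SAT LAE replicates 4 and 6 Pparg lay further below the rest of the group than Cebpa did, and a broad shift went with it: 879 and 881 genes were more than 4-fold up on the SAT median there, where the other SAT libraries had 26 to 319. The part of this shift in the members' levels was not tested.

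**Figure D3:**
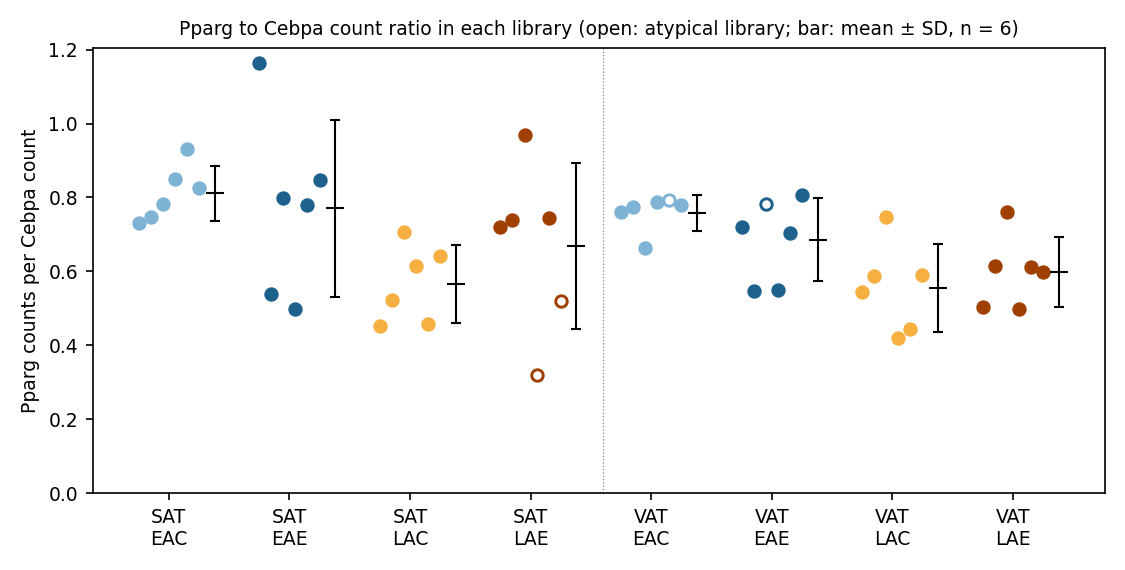
Pparg counts per Cebpa count on the vertical axis for each library by group, with atypical libraries as open circles and the mean ± SD of 6 libraries as bars. SAT LAC libraries (0.452 to 0.707) lie below SAT EAC libraries (0.732 to 0.930).

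Within groups the genes varied together in SAT. After each group mean was subtracted, log2 CPM of Pparg and Cebpa correlated over 24 SAT libraries at Pearson r = 0.89 (permutation p = 1.00e-05, the smallest possible, adjusted 4.00e-05) and Spearman rho = 0.83 (permutation p = 1.80e-04, adjusted 7.20e-04). The libraries farthest from the median of Pparg were the atypical pair, and without them r was 0.70 and rho 0.65 over 22 (permutation p = 1.80e-04 and 0.00177, adjusted 7.20e-04 and 0.00708). In VAT r was 0.65 and rho 0.43 (permutation p = 0.00274 and 0.0476, adjusted 0.00548 and 0.0875). Without the 2 farthest libraries r was 0.52 and rho 0.49 (permutation p = 0.0333 and 0.0305, adjusted 0.0666 and 0.0611). Without the atypical ones r and rho were 0.31 each (permutation p = 0.188 and 0.185, adjusted 0.188 and 0.246). In VAT only r over all 24 libraries thus passed after adjustment, and both measures were lower without the atypical libraries. Adjustment was over the 4 relations computed. Both genes share each library's scaling and tissue sample. How many other genes vary with Pparg in this way within groups was not examined.

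Same-numbered SAT and VAT libraries may come from 1 rat, though the labels do not say that a number marks a rat. Over 24 such pairs the group-centred levels correlated at r = 0.37 and rho = 0.35 for Pparg (permutation p = 0.0131 and 0.0656, adjusted 0.0174 and 0.0875), and at r = 0.32 and rho = 0.38 for Cebpa (permutation p = 0.155 and 0.0888, adjusted 0.155 and 0.0888). Without the 2 farthest pairs r was 0.30 for Pparg (permutation p = 0.228, adjusted 0.228), where the relation no longer passed, and 0.38 for Cebpa (permutation p = 0.168, adjusted 0.224). Over the 20 pairs with no atypical library r was 0.41 and rho 0.27 for Pparg (permutation p = 0.173 and 0.308, adjusted 0.188 and 0.308). For Cebpa r was then 0.50 and passed (permutation p = 0.0177, adjusted 0.0353), while rho was 0.51 (permutation p = 0.0316, adjusted 0.0633).

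**Figure D4:**
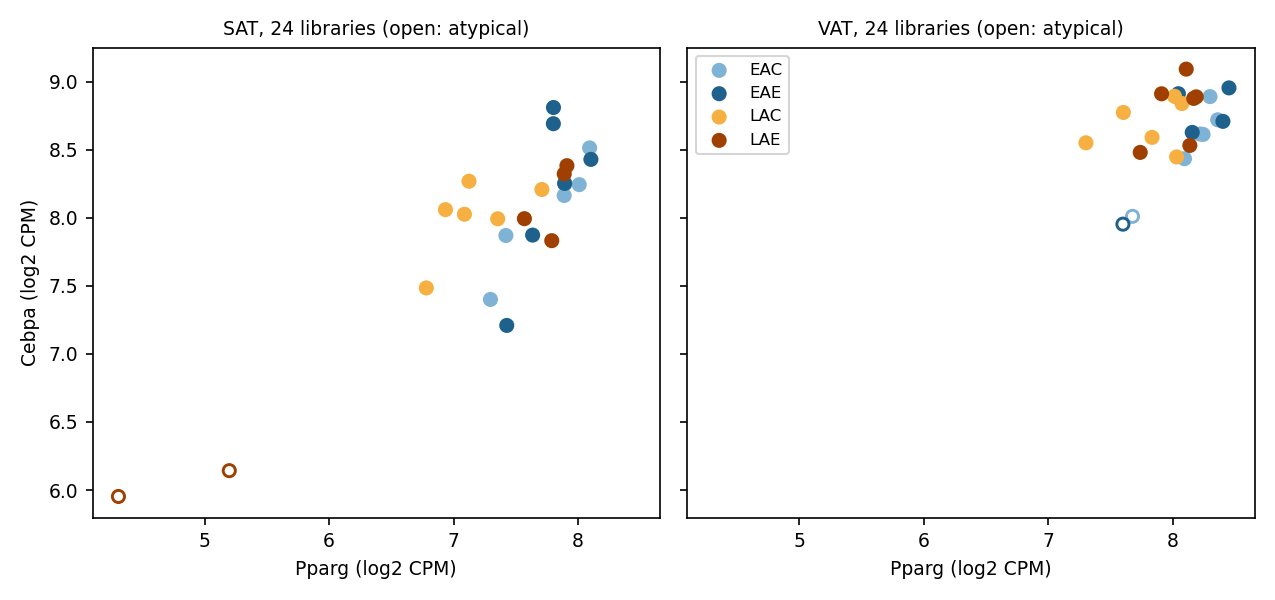
Cebpa (vertical) against Pparg (horizontal) in log2 CPM for the 24 SAT (left) and 24 VAT (right) libraries, coloured by arm, with atypical libraries as open circles. SAT libraries run from low to high in both genes with the LAC libraries to the left at a given Cebpa level, and VAT libraries form a tighter cloud.

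Over all 48 libraries Cebpa was the gene ranked 179 of 11017 by likeness to Pparg (Pearson r = 0.87 of log2 CPM, genes with a mean of at least 5 CPM), and 4.26% of genes had r over 0.8. Within SAT the value was 0.89 and within VAT 0.49, and without the atypical libraries it was 0.70, at rank 813. The genes most like Pparg were ENSRNOG00000010940 (r = 0.96, with 0.97 in SAT and 0.78 in VAT) and ENSRNOG00000022239 (0.96, with 0.96 and 0.75). Those most like Cebpa were ENSRNOG00000003918 (0.96, with 0.96 and 0.82) and ENSRNOG00000027434 (0.95, with 0.94 and 0.86). Without the atypical libraries ENSRNOG00000003918 was still first for Cebpa at 0.93, while ENSRNOG00000010940 was at rank 14 for Pparg at 0.87. These are descriptions over libraries that share depots and the atypical samples, and the IDs are not paired with names here.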

How the data were processed

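PolyA-selected RNA was sequenced as single-end reads, per the labels' protocols. The authors deposited estimated counts per Ensembl gene ID, as whole numbers. The submitters' processing notes list Salmon 1.4.0 and rn6 as tool and build. Which annotation release was used, and how transcripts were summed, is not given in the sources used here. Every column was matched to a sample. Tests ran in R 4.3.3 with edgeR 4.0.16 on these counts (TMM, filterByExpr, quasi-likelihood fit of 24 libraries of a depot or all 48, Benjamini-Hochberg over all genes, threshold 0.05). SE is the log2 fold change over the square root of F. log2 CPM used a prior count of 2. Atypical means a median Spearman correlation over 5 median absolute deviations below the depot median.

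Replicates are taken as separate rats, per the group sizes in the labels. Replicate numbers were not used to pair libraries in the tests reported. Simulated counts with known changes served to test the fits. Alternatives were DESeq2 size factors and Wald test (1.42.0), limma voom (3.58.1), no filter, the 2 groups fitted alone, leaving out libraries, and a block for the replicate number. Library totals and leaving out the atypical libraries were added after seeing the data. Members and gene lists were chosen with earlier results of these data known. Members are always named, with the 2 IDs most like each. Lists by symbol were not analysed because 0 IDs matched a symbol in the RefSeq gene table.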

Additional observations from a re-analysis of the deposited data

Results flagged for a closer look

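Of 24 groups of 6 values examined (each gene's CPM and their count ratio in 8 groups), 1 held a value far from the others, about what chance gives at 1 in 20 groups. VAT EAC replicate 3 had 0.663 Pparg counts per Cebpa count, with the nearest other library of its group at 0.759. Its Cebpa level, 474 CPM, was the highest of that group, and its Pparg level, 315 CPM, lay inside the range of the others.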

How the results depend on the processing

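Beside the leave-one-out fits, 240 values were recomputed for the 2 genes: 214 kept their sign and their side of the threshold, 11 gained a call, 2 lost it and 13 changed sign, none of these with a call. Pparg in SAT of sedentary rats, late against early, gained a call with limma voom (-0.60), without the atypical libraries (-0.59) and in a fit of the 2 groups alone (-0.59). In VAT it gained one with limma voom (-0.37), library totals (-0.33) and without the atypical libraries (-0.41). The Pparg depot difference in sedentary rats gained one with DESeq2 size factors (0.51), the DESeq2 Wald test (0.51), limma voom (0.54) and without the atypical libraries (0.54). With the replicate block, which treats same-numbered libraries as pairs, it was 0.51 (adjusted p = 0.0484, edgeR), and the block changed no other call. The labels do not say that a number marks a rat. Deviations of same-numbered SAT and VAT libraries correlated at -0.14 to 0.29, over 0.1 in 16 of 24 pairs, and 15 correlated best with their own number. Between arms within a depot, the same number correlated best in 8 of 36 cases in SAT and 7 of 36 in VAT. Pparg was higher in VAT in 6 of 6 such pairs in each sedentary arm and in 23 of 24 in all. Library totals ended the depot calls of Cebpa in sedentary rats (0.39) and of Pparg in exercised rats (0.40).

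Signs changed only for values with no call, and the cause was not tested. With the replicate block Pparg in SAT was at -0.021 for early exercise, -0.028 for late exercise and -0.0069 for their interaction. Early exercise in SAT gave Pparg -0.031 with library totals and -0.0064 in the 2 groups alone, and its depot by exercise value was 0.0020 early with library totals and -0.21 late with limma voom. Without the atypical libraries signs changed for Pparg in SAT between exercised phases (0.0052), for Cebpa with late exercise in SAT (0.12) and between exercised phases in VAT (-0.028), for Pparg in the depot by phase value of exercised rats (-0.18), and in the late depot by exercise values of Pparg (-0.39) and Cebpa (-0.010).

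Leaving out 1 library or numbered pair at a time gave 432 values, of which 390 kept sign and call. Pparg ran from -0.41 to -0.25 for the sedentary phase in VAT and from 0.45 to 0.63 for the depots of exercised rats. Uncalled values crossed 0 for Pparg with early exercise (-0.082 to 0.069 in SAT, -0.095 to 0.060 in VAT), late exercise in SAT (-0.061 to 0.33), the SAT interaction (-0.061 to 0.33) and depot by exercise (-0.11 to 0.15 early, -0.091 to 0.26 late). Those of Cebpa did for phase in sedentary SAT (-0.19 to 0.0084) and exercised VAT (-0.028 to 0.14), the VAT interaction (-0.14 to 0.052) and early depot by exercise (-0.18 to 0.10). Counting error was at most 5.23% for the members. The effect of depth or group size on these results was not tested.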
